A study of Mus musculus with 6 samples.

Results

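This account covers 9 genes of the tight junction plaque and of its tricellular corners in the embryonic mouse lung epithelium: Cgn, Cgnl1, Tjp1, Tjp3, Ocln, Marveld2, F11r, Ildr1 and Lsr. They were chosen by name, as the cingulins, ZO proteins, MARVEL proteins, angulins and JAM-A, with earlier results of these data known. Each was found once among the 27179 genes of the deposited count table by its Entrez identifier. All 9 passed the filter on low counts. RNA was sequenced from EpCAM-positive cells sorted by flow cytometry from E16.5 lungs (days of embryonic development), in 6 libraries. The knockout group, called Grhl2_cKO, has the genotype Shh-Cre;Grhl2f/- (1 floxed and 1 deleted allele of Grhl2; n = 3, replicates 1, 5 and 10). The control group has the genotype Shh-Cre;Grhl2f/+ (1 floxed and 1 intact allele; n = 3, replicates 1, 3 and 7). Both groups carry Shh-Cre, a Cre recombinase that acts in cells where Sonic hedgehog is expressed, including the lung epithelium, so the controls are heterozygous for Grhl2 wherever Cre has been active, and are not wild type. Each group held 2 male libraries and 1 female library.

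Tight junctions seal the space between neighbouring epithelial cells at the apical end of their lateral membranes. Claudins, occludin and JAM proteins span the membrane, ZO proteins bind their tails from inside and hold them to actin, and cingulins join that plaque to actomyosin. Where the corners of 3 cells meet, angulins mark the site and recruit tricellulin, the product of Marveld2. Grhl2 encodes grainyhead-like 2, a transcription factor of epithelia that is known to activate genes of cell junctions, and grainyhead factors bind DNA at sites close to AACCGGTT.

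The start-site regions of the 4 members that fell in Grhl2_cKO, and of Ocln, which also holds a match, are printed below so that the members' sequences can be read beside their values. For Tjp3 and Ocln, which have another window each, the window with a match is the one printed. Each run has 250 bases before and 50 bases after an annotated start, 5′ to 3′ on the gene's strand, from RefSeq's GRCm38.p6 assembly, the build that mm10 names. Capitals mark every match, on either strand, to AACCNGTT (reverse complement AACNGGTT) or to its shorter core CCGGTT (reverse complement AACCGG), letters chosen after these sequences had been seen. A match to AACCGGTT would also count under both.
Cgn: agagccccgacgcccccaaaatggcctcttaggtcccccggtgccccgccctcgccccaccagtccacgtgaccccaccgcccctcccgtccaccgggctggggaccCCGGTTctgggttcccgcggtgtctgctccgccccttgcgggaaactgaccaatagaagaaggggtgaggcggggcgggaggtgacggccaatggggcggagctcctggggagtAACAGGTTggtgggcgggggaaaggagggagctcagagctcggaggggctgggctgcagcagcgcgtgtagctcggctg
Tjp3: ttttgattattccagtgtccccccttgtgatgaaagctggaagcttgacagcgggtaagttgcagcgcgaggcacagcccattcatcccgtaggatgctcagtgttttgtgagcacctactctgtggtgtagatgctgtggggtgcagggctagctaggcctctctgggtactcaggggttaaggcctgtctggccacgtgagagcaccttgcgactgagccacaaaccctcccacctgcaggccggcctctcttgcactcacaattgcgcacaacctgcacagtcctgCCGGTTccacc
Ildr1: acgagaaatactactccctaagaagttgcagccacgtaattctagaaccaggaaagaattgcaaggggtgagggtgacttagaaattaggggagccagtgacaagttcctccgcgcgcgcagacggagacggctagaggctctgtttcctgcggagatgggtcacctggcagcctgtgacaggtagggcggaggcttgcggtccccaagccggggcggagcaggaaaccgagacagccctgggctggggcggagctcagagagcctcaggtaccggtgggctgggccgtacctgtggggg
F11r: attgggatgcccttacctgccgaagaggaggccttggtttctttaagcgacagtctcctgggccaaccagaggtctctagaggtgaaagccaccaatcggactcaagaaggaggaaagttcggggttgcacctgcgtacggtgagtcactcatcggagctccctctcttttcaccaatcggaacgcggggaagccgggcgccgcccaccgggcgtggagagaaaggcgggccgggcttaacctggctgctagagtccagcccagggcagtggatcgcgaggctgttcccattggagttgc
Ocln: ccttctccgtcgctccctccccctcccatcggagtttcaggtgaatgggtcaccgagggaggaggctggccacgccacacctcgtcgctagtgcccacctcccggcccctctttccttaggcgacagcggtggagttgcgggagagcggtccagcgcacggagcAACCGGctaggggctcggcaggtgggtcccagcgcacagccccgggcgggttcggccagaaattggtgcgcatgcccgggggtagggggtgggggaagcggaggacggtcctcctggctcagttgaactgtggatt
These windows lie at chr3:94786433-94786732 (minus strand) for Cgn, chr10:81291218-81291517 (minus strand) for Tjp3, chr16:36693728-36694027 (plus strand) for Ildr1, chr1:171437311-171437610 (plus strand) for F11r and chr13:100552449-100552748 (minus strand) for Ocln. The window of Cgn holds AACAGGTT with its first base at -29, and CCGGTT at -143, counted from the start (negative before it). Tjp3 has CCGGTT at 39, after the start, in this window and no match in its other window, and Ocln has AACCGG at -86 in this window and none in its other window. All 9 members had an entry, with 12 windows between them, and the windows of Cgnl1, Tjp1, Marveld2, F11r, Ildr1 and Lsr hold no match. The windows of Cgn, Cgnl1 and Tjp1 lie within the gene spans given below, so the outermost ends of these genes were not searched. Among all 32851 such windows in the table, 2.09% hold AACCNGTT, 6.83% hold CCGGTT and 0.146% hold AACCGGTT. No member's window holds AACCGGTT.

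The libraries held 13472216 to 17228762 counts. Grhl2 itself, the targeted gene, stood at 105.3, 109.2 and 115.3 CPM (read counts scaled to a common library size, with TMM factors) in Grhl2_cKO replicates 1, 5 and 10, against 149.2, 147.9 and 146.0 CPM in control replicates 1, 3 and 7, which leaves 74.4% of the control level (adjusted p = 0.00204 by edgeR). The counts are sums over the whole gene, so exons outside the floxed part can still be counted. The source of the remaining Grhl2 RNA was not tested. Of 8 epithelial markers 1 fell and 0 rose, and their summed level was 14910 to 17780 CPM in Grhl2_cKO and 15770 to 16960 CPM in controls. Sftpc made up most of this sum, with means of 14230 CPM in Grhl2_cKO and 13370 CPM in controls. Among the markers not called, Cdh1, Krt8, Krt18 and Krt19 stood at 71.8% to 83.0% of control, Cdh1 and Krt8 without overlap. Nkx2-1, Sftpc and Foxa2 stood at 103% to 106.4%. The 1 that fell was Epcam, whose protein was used for the sort, at 361.3 ± 36.2 CPM in Grhl2_cKO and 534.6 ± 29.7 CPM in controls (SD, n = 3 each; adjusted p = 0.00527 by edgeR). Summed markers of other cells in the tissue overlapped between the groups for endothelium (168.3 to 183.2 CPM in Grhl2_cKO, 128.1 to 196.2 CPM in controls) and mesenchyme (820 to 1646 CPM in Grhl2_cKO, 851.1 to 1360 CPM in controls). The sums also overlapped for mesothelium (19.5 to 60.7 CPM in Grhl2_cKO, 39.7 to 78.5 CPM in controls) and leukocytes (5.74 to 8.90 CPM in Grhl2_cKO, 5.90 to 8.65 CPM in controls). Of the mesothelial markers, Msln stood at 33.7% of control without overlap but was not called (adjusted p = 0.0788 by edgeR), and the others overlapped. Heart muscle markers summed to 201.2 CPM in Grhl2_cKO replicate 1 and to 18.5 to 39.7 CPM in the other 5 libraries.

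The comparison asked how these genes differ when Grhl2 is deleted. Of the 9 members 4 fell, Cgn, Ildr1, Tjp3 and F11r, and 0 rose (edgeR's quasi-likelihood test at an adjusted p under 0.05, by Benjamini and Hochberg over 14842 genes; DESeq2 also called these 4 lower and 0 higher). Over all tested genes 2.38% were called lower and 1.21% higher, or 3.59% in either direction. Because the members were chosen with earlier results of these data known, setting them beside these shares is a description and not a test. The median log2 fold change was -0.07 over the 9 members and 0.00 over all tested genes, and 8 of the 9 lay below 0, against 7639 of all 14842 tested genes. Of the 8, Tjp1, Lsr and Ocln lay near 0 and changed sign in some alternatives. The 4 that fell stood at 58.7% to 82.0% of control, and the other 5 at 95.2% to 106.2%. CPM values of the groups did not overlap for the same 4 genes, all lower, and 0 were higher without overlap. Over all tested genes, 9.89% were lower and 8.17% higher without overlap. It is not stated whether each library came from 1 embryo, so these p-values measure the spread between the libraries, which may be technical in part.

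**Figure D1:**
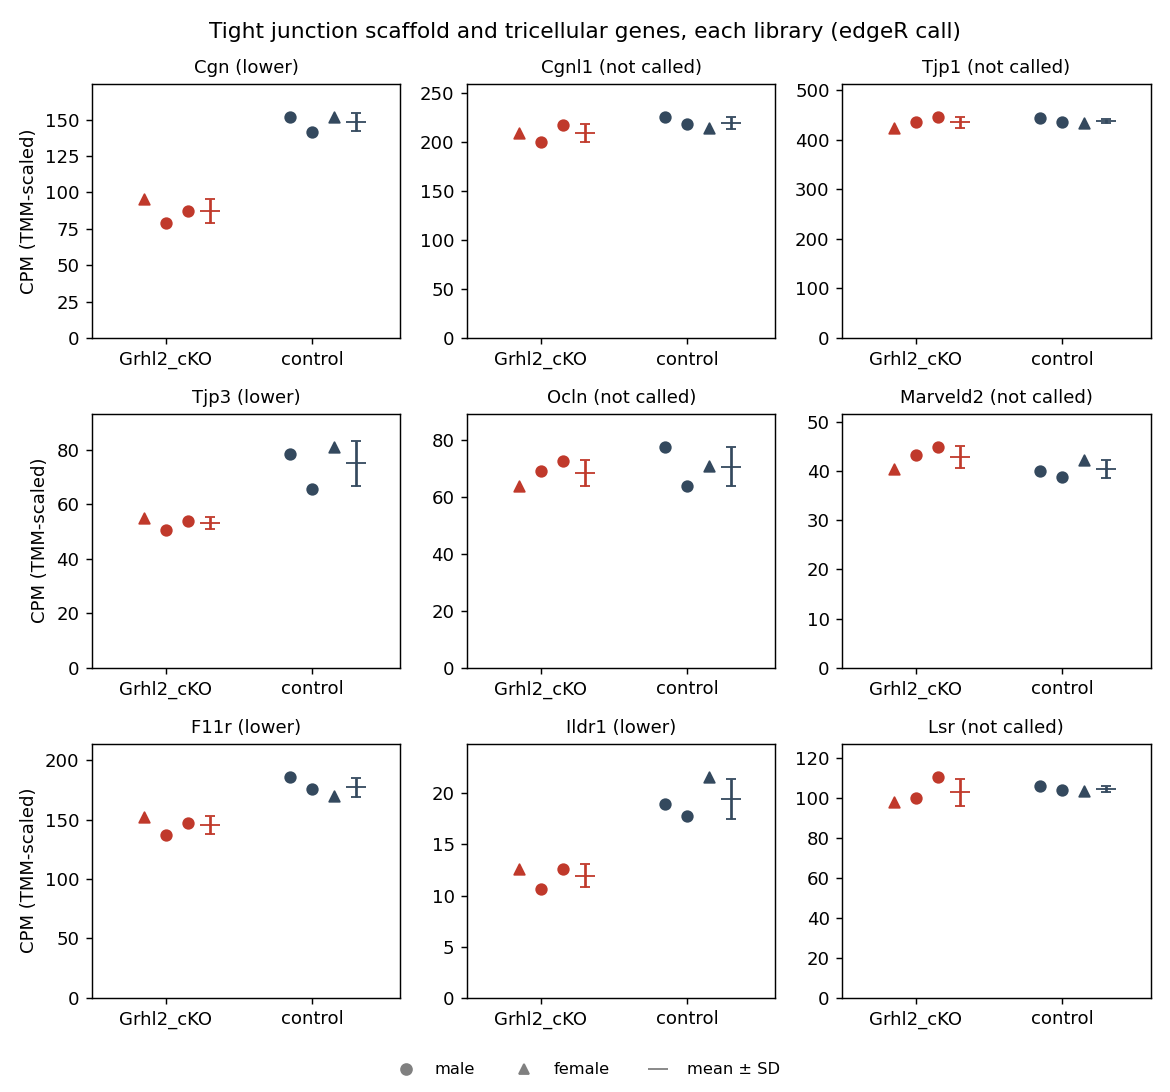
CPM of the 9 genes in each library, with Grhl2_cKO on the left and control on the right of each panel. Circles are male and triangles female libraries, and bars show the mean ± SD of 3. Cgn, Tjp3, F11r and Ildr1 lie lower in each Grhl2_cKO library than in each control library, and the groups overlap in the other 5 panels.

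Cgn encodes cingulin, a cytoplasmic plaque protein that binds ZO-1 and myosin (Entrez 70737, chromosome 3, 94760069 to 94787725, minus strand). It had 95.2, 78.9 and 87.5 CPM in Grhl2_cKO replicates 1, 5 and 10, against 152.0, 141.6 and 151.8 CPM in control replicates 1, 3 and 7. The highest Grhl2_cKO library was far below the lowest control library. The log2 fold change was -0.77 ± 0.07 (SE, 3 libraries a group; adjusted p = 0.00039, edgeR), or 58.7% of control with a 95% interval of 52.6% to 65.7%. It was called lower in 14 of 14 alternative fits, with log2 fold changes of -0.84 to -0.70. Of all tested genes, 2.19% fell as much or more.

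Cgnl1 encodes paracingulin, the paralog of cingulin, which is also found at adherens junctions (Entrez 68178, chromosome 9, 71626507 to 71809300, minus strand). It held 199.5 to 217.7 CPM in Grhl2_cKO and 214.1 to 225.6 CPM in controls, so the groups overlapped. The log2 fold change of -0.07 ± 0.06 did not pass (adjusted p = 0.747 by edgeR), and its 95% interval ran from 87.3% to 103.8% of control. Within each library, the log2 ratio of Cgn to Cgnl1 per length was -0.71, -0.92 and -0.89 in Grhl2_cKO replicates 1, 5 and 10, against -0.15, -0.20 and -0.07 in control replicates 1, 3 and 7. This ratio does not depend on library scaling. Its mean differed by -0.70 between the groups (exact two-sided permutation test, p = 0.1, which is the smallest p that 3 against 3 allows; adjusted p = 0.1 over 4 pairs of members), so the design cannot pass 0.05 for it. Per length, Cgn made up 35.9% ± 1.79 of the 2 cingulins in Grhl2_cKO and 47.6% ± 1.10 in controls (SD, n = 3 each), and their summed level was 48.2 ± 2.62 RPKM in Grhl2_cKO and 61.9 ± 1.59 RPKM in controls (RPKM being CPM per kilobase of the gene's counted length).

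Among the ZO scaffolds, which bind claudin tails through PDZ domains, the 2 members split. Tjp3 encodes ZO-3, which is found in epithelia (Entrez 27375, chromosome 10, 81273188 to 81291581, minus strand). It stood at 54.9, 50.5 and 53.7 CPM in Grhl2_cKO replicates 1, 5 and 10, against 78.46, 65.57 and 81.05 CPM in control replicates 1, 3 and 7. Control replicate 3 was the lowest control and still above each Grhl2_cKO library. The log2 fold change was -0.50 ± 0.09 (SE, 3 libraries a group; adjusted p = 0.0112, edgeR), or 70.8% of control with a 95% interval of 62.0% to 80.7%. The call was lost without Grhl2_cKO replicate 5 (adjusted p = 0.0533) and in male libraries alone (0.0522), the 2 highest values over its 14 alternatives, the lowest being 6.23e-05. Tjp3 shares 40 exonic bases, 1.08% of its exons, with Apba3 on the other strand in the GENCODE M21 annotation, and Apba3 had a log2 fold change of 0.09 ± 0.08 (adjusted p = 0.8 by edgeR).

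Tjp1 encodes ZO-1, the founding member of the family (Entrez 21872, chromosome 7, 65296165 to 65527850, minus strand). It held 423.6 to 446.2 CPM in Grhl2_cKO and 434.4 to 443.3 CPM in controls, with a log2 fold change of -0.01 ± 0.06 (adjusted p = 0.99 by edgeR). The Grhl2_cKO libraries lay on both sides of the controls, and the 95% interval was 90.6% to 109.0% of control. The log2 ratio of Tjp3 to Tjp1 per length was -1.72, -1.88 and -1.82 in Grhl2_cKO replicates 1, 5 and 10, against -1.27, -1.50 and -1.19 in control replicates 1, 3 and 7 (difference -0.49; exact two-sided permutation test, p = 0.1; adjusted p = 0.1). The ratios did not overlap between the groups.

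Ocln and Marveld2 encode MARVEL proteins with 4 membrane spans, occludin at contacts of 2 cells and tricellulin at contacts of 3 cells. They are neighbours on chromosome 13 (Ocln, Entrez 18260, 100496504 to 100552718; Marveld2, Entrez 218518, 100595957 to 100616971; both on the minus strand), 43239 bases apart. Ocln held 63.8, 69.1 and 72.7 CPM in Grhl2_cKO replicates 1, 5 and 10, against 77.7, 63.8 and 70.8 CPM in control replicates 1, 3 and 7. The groups covered nearly the same range, and the log2 fold change of -0.05 ± 0.08 did not pass (adjusted p = 0.937 by edgeR; 95% interval 85.3% to 110.1% of control). Marveld2 held 40.4 to 44.9 CPM in Grhl2_cKO and 38.7 to 42.3 CPM in controls, with a log2 fold change of 0.09 ± 0.07 (adjusted p = 0.768 by edgeR; 95% interval 94.8% to 119.1%). It was the 1 member with a log2 fold change above 0. The log2 ratio of Marveld2 to Ocln per length averaged -0.76 ± 0.02 in Grhl2_cKO and -0.89 ± 0.13 in controls (SD, n = 3 each; exact two-sided permutation test, p = 0.1; adjusted p = 0.1), a difference of 0.13, without overlap between the groups, that was 0.05 without control replicate 1. Marveld3, the remaining MARVEL gene of tight junctions, had a log2 fold change of 0.06 ± 0.08 (adjusted p = 0.89 by edgeR), and the summed level of the 3 genes was 43.9 ± 2.62 RPKM in Grhl2_cKO and 43.4 ± 2.76 RPKM in controls (SD, n = 3 each).

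The angulins are single-span immunoglobulin-like proteins at the corners between cells. Ildr1 encodes angulin-2 (Entrez 106347, chromosome 16, 36693978 to 36726804, plus strand) and was the least abundant member, with 166 to 335 counts per library. It stood at 12.6, 10.7 and 12.6 CPM in Grhl2_cKO replicates 1, 5 and 10, against 18.9, 17.8 and 21.6 CPM in control replicates 1, 3 and 7. All 3 Grhl2_cKO libraries were below all 3 controls. The log2 fold change was -0.70 ± 0.11 (SE, 3 libraries a group; adjusted p = 0.00858, edgeR), or 61.5% of control with a 95% interval of 51.6% to 73.4%, and it was called lower in 14 of 14 alternative fits (adjusted p 0.000202 to 0.0454).

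Lsr encodes angulin-1, also known as the lipolysis-stimulated lipoprotein receptor (Entrez 54135, chromosome 7, 30957770 to 30973469, minus strand). It held 98.0, 100.2 and 110.8 CPM in Grhl2_cKO replicates 1, 5 and 10, against 106.2, 104.1 and 103.4 CPM in control replicates 1, 3 and 7. Grhl2_cKO replicate 10 was above each control and the others below, and the log2 fold change of -0.02 ± 0.06 did not pass (adjusted p = 0.971 by edgeR; 95% interval 89.7% to 108.2% of control). In the GENCODE M21 annotation, 43.6% of the exonic bases of Lsr are also exons of Gm4673 on the other strand, and whether counting used strand is not stated in the sources, so the level of Lsr is uncertain. The log2 ratio of Ildr1 to Lsr per length was -3.37, -3.63 and -3.54 in Grhl2_cKO replicates 1, 5 and 10, against -2.89, -2.95 and -2.66 in control replicates 1, 3 and 7 (difference -0.68; exact two-sided permutation test, p = 0.1; adjusted p = 0.1).

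Ildr2, which encodes angulin-3 and is not a member, lay in the other direction from Ildr1. It had 31.1, 29.4 and 30.2 CPM in Grhl2_cKO replicates 1, 5 and 10, against 24.4, 21.7 and 25.4 CPM in control replicates 1, 3 and 7, without overlap. Its log2 fold change of 0.34 ± 0.08 did not pass (adjusted p = 0.0571 by edgeR), and it was called higher in 2 of 14 alternatives (adjusted p 0.0488 to 0.227). Per length, Ildr1 made up 7.54% ± 0.64 of the 3 angulins in Grhl2_cKO and 11.7% ± 1.08 in controls, while Ildr2 made up 6.66% ± 0.44 in Grhl2_cKO and 5.00% ± 0.33 in controls (SD, n = 3 each). Lsr held most of the family in each library, and the summed level was 55.1 ± 3.31 RPKM in Grhl2_cKO and 57.7 ± 0.91 RPKM in controls.

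F11r encodes JAM-A, an immunoglobulin-like adhesion protein whose tail binds ZO-1 and the polarity protein PAR-3 (Entrez 16456, chromosome 1, 171437561 to 171464593, plus strand). It stood at 152.2, 137.0 and 146.8 CPM in Grhl2_cKO replicates 1, 5 and 10, against 186.1, 175.5 and 169.9 CPM in control replicates 1, 3 and 7. The groups did not overlap, though the gap was narrow. The log2 fold change was -0.29 ± 0.06 (SE, 3 libraries a group; adjusted p = 0.0278, edgeR), or 82.0% of control with a 95% interval of 74.9% to 89.9%. This call held in 7 of 14 alternatives (adjusted p 0.00891 to 0.127). It was lost with sex as a covariate (0.0609), in male libraries alone (0.0672) and without Grhl2_cKO replicate 5 (0.127), Grhl2_cKO replicate 10 (0.0875), control replicate 1 (0.0791), control replicate 3 (0.0967) or control replicate 7 (0.0507), while the log2 fold change stayed between -0.35 and -0.24 in these and the other alternatives.

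The other JAM genes were measured beside it. Jam3 encodes JAM-C, which is expressed in several cell types including endothelium, and it rose. It had 19.7, 23.5 and 23.2 CPM in Grhl2_cKO replicates 1, 5 and 10, against 12.03, 11.45 and 10.71 CPM in control replicates 1, 3 and 7. Every Grhl2_cKO library was above every control, and the log2 fold change was 0.96 ± 0.11 (SE, 3 libraries a group; adjusted p = 0.000976, edgeR), called in 14 of 14 alternatives. Of 7 endothelial markers 0 were called, and 6 of them overlapped between the groups, with log2 fold changes of -0.09 (Tek) to 0.12 (Tie1). The remaining one, Cldn5, had 15.5, 13.2 and 16.3 CPM in Grhl2_cKO replicates 1, 5 and 10, against 11.4, 13.1 and 9.62 CPM in control replicates 1, 3 and 7, without overlap. Its log2 fold change of 0.40 ± 0.14 did not pass (adjusted p = 0.185 by edgeR; unadjusted p = 0.0145). The part of endothelial cells in the level of Jam3 was not tested. Jam2 was low, at 3.95 ± 0.70 CPM in Grhl2_cKO and 4.76 ± 1.27 CPM in controls (SD, n = 3 each; adjusted p = 0.763 by edgeR). Per length, Jam3 made up 15.9% ± 1.91 of the 3 JAM genes in Grhl2_cKO and 7.40% ± 0.10 in controls, and F11r made up 82.9% ± 1.76 in Grhl2_cKO and 91.3% ± 0.41 in controls (SD, n = 3 each).

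**Figure D2:**
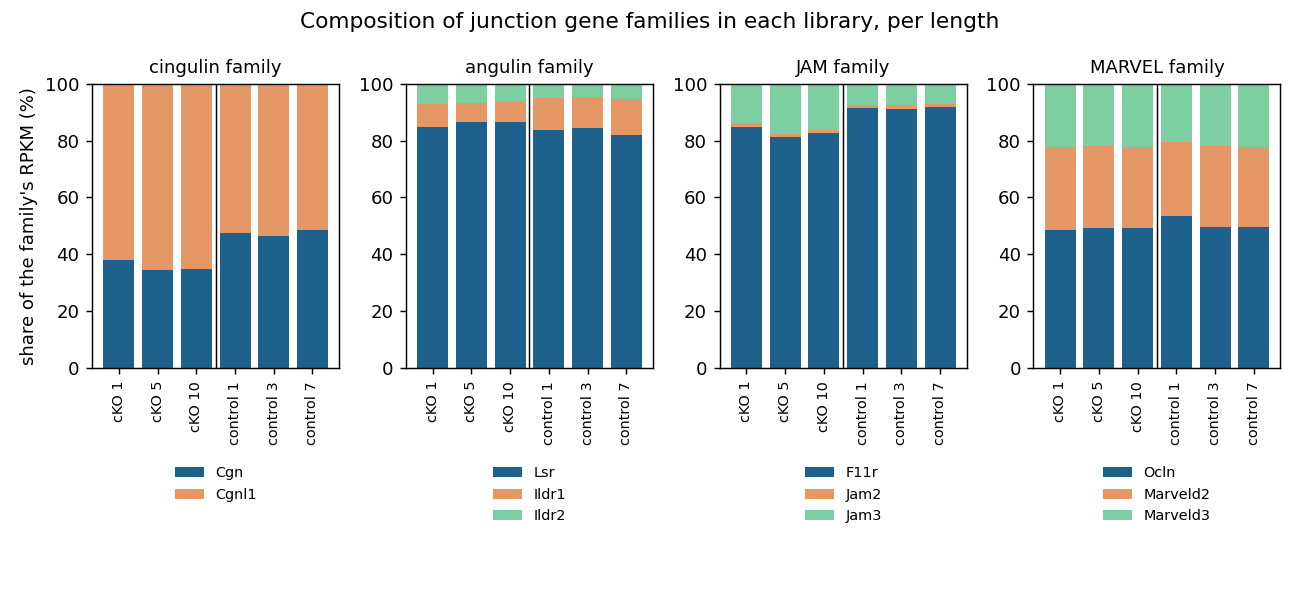
Share of each gene in the summed RPKM of its family, in percent, for each library, with the 3 Grhl2_cKO libraries left of the line and the 3 controls right of it. Cgn made up 34.6% to 37.9% of the cingulins in Grhl2_cKO and 46.5% to 48.7% in controls, Jam3 13.8% to 17.6% of the JAM genes in Grhl2_cKO and 7.29% to 7.47% in controls, and Ocln 48.6% to 49.1% of the MARVEL genes in Grhl2_cKO and 49.7% to 53.6% in controls.

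Per length, the order of the members also differed between the genotypes. In Grhl2_cKO the order ran Tjp1 (61.2 ± 1.59 RPKM), F11r (58.6 ± 3.10), Lsr (47.3 ± 3.15), Cgnl1 (30.9 ± 1.35), Ocln (21.5 ± 1.40), Tjp3 (17.5 ± 0.74), Cgn (17.3 ± 1.62), Marveld2 (12.7 ± 0.67) and Ildr1 (4.15 ± 0.39; SD, n = 3 each). Of these neighbours, Tjp1 and F11r overlapped in RPKM between libraries, as did Tjp3 and Cgn, and the other neighbours did not overlap. In controls the order ran F11r (71.4 ± 3.33 RPKM), Tjp1 (61.6 ± 0.66), Lsr (48.0 ± 0.67), Cgnl1 (32.5 ± 0.86), Cgn (29.5 ± 1.18), Tjp3 (24.8 ± 2.74), Ocln (22.2 ± 2.18), Marveld2 (11.9 ± 0.53) and Ildr1 (6.75 ± 0.69). There, Tjp3 and Ocln overlapped and the other neighbours did not. Cgn stood above Ocln in each control library and below Ocln in each Grhl2_cKO library.

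A list of 25 further tight junction genes, partners of the members at the membrane or in the plaque, was read beside them. Of the 24 that passed the filter, 1 rose (Jam3), 0 fell and 23 were not called. With DESeq2 the counts were the same, and 3 of the 24 had an unadjusted p under 0.05 in edgeR, as did 13.3% of all tested genes. The median log2 fold change of the list was 0.04, with a range of -0.27 (Jam2) to 0.96 (Jam3). Without overlap in CPM, 1 of the 24 was lower and 3 were higher, against 9.89% and 8.17% of all tested genes. Cxadr, which encodes the coxsackievirus and adenovirus receptor, an adhesion protein of tight junctions, held 296.9 ± 14.4 CPM in Grhl2_cKO and 271.2 ± 16.4 CPM in controls (SD, n = 3 each; adjusted p = 0.477 by edgeR). Its groups did not overlap, by a narrow margin (lowest Grhl2_cKO library 284.2 CPM, highest control library 282.1 CPM). Patj and Magi3, which encode PDZ scaffolds and were chosen after their values were seen, had log2 fold changes of 0.02 ± 0.05 and 0.09 ± 0.05 (adjusted p values of 0.969 and 0.553 by edgeR). Bves did not pass the filter, with 3 to 8 counts per library.

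**Figure D3:**
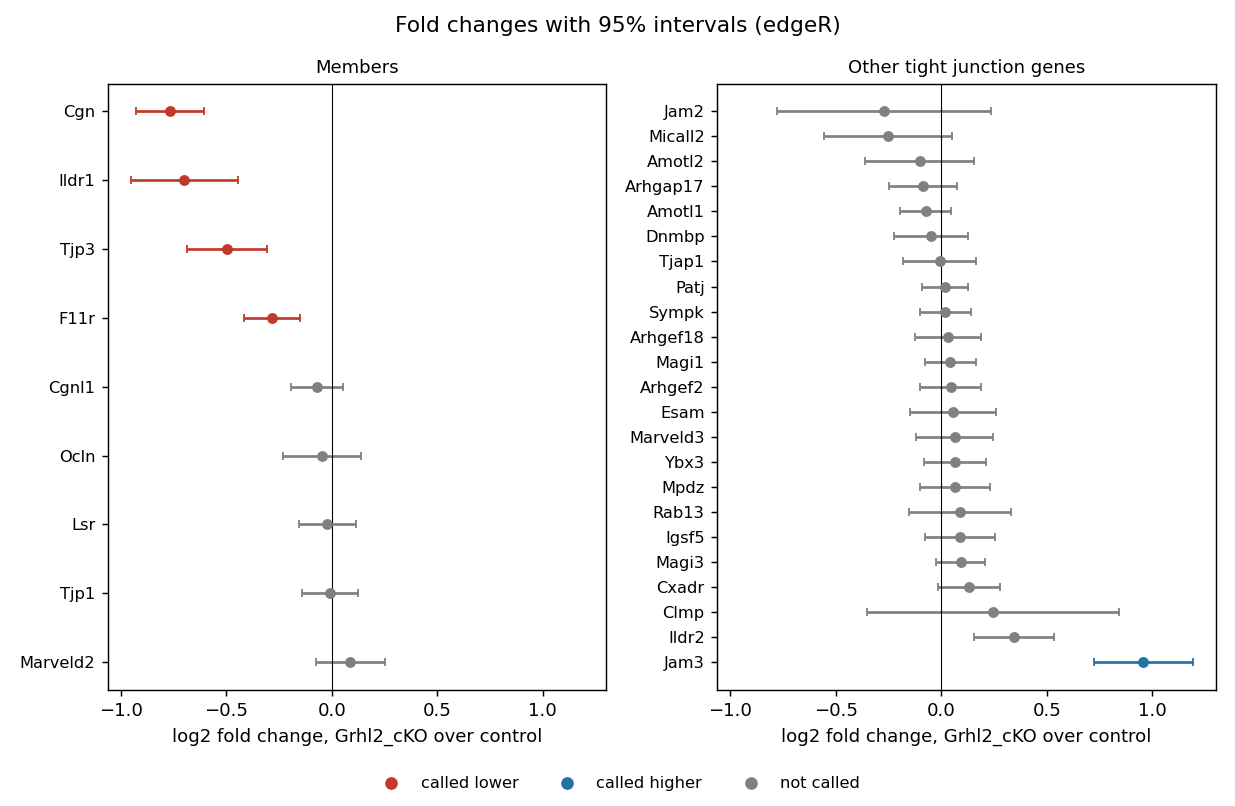
Log2 fold changes (Grhl2_cKO over control) with 95% intervals from the edgeR fit, for the 9 members on the left and 23 other tight junction genes on the right. The 4 members called lower lie between -0.77 and -0.29, and Jam3, at 0.96, is the 1 gene called higher.

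**Figure D4:**
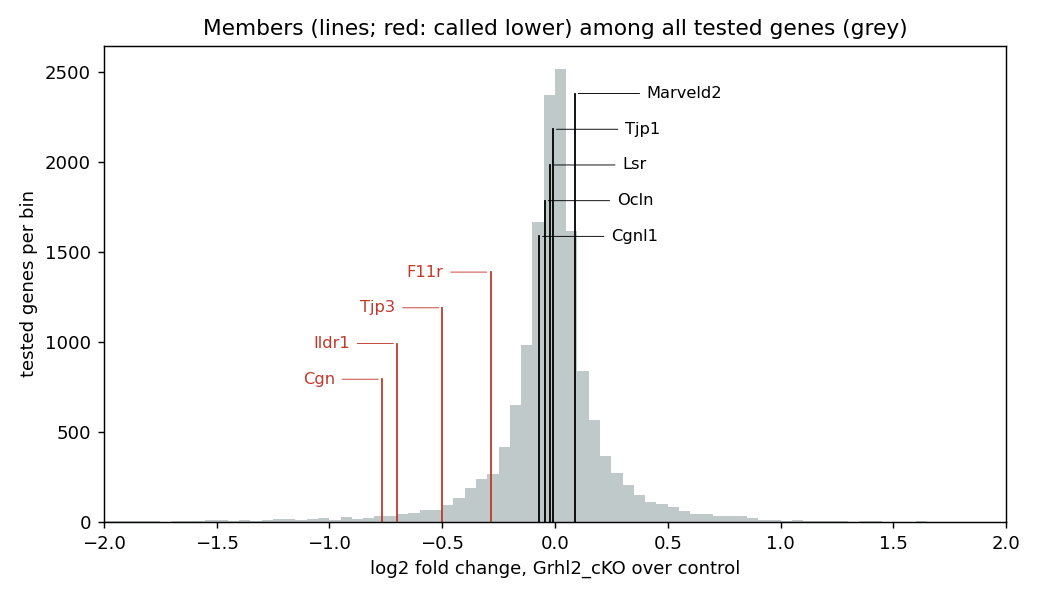
Log2 fold changes of all 14842 tested genes in grey (genes per bin; 32 genes beyond 2 in either direction are outside the plot), with each of the 9 members as a line. The 4 lower members lie on the left flank of the distribution, and the other 5 within its central peak, between -0.07 and 0.09.

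Genes near the members were looked up to see whether a member's change was shared along the chromosome. Within 100000 bases of the 9 members there were 45 entries of tested genes, of which 1 was called lower and 1 higher, near the 2.38% and 1.21% over all tested genes. The lower one was Nectin4, an adhesion gene 49274 bases from F11r, with a mean of 4.42 CPM in Grhl2_cKO and 19.1 CPM in controls (log2 fold change -2.11 ± 0.16, adjusted p = 0.000103 by edgeR). Usf1, 18607 bases from F11r, had a log2 fold change of -0.06 ± 0.07 (adjusted p = 0.846 by edgeR). None of the 4 tested neighbours of Cgn, the 14 of Tjp3 or the 2 of Ildr1 was called. Fxyd1, 78209 bases from Lsr, was the higher one, with a mean of 6.201 CPM in Grhl2_cKO and 3.195 CPM in controls (log2 fold change 0.96 ± 0.20, adjusted p = 0.025 by edgeR). The windows of Ocln and Marveld2 share genes, which are counted for both, and each of these members is counted as a neighbour of the other.

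Across the whole table, the genes whose log2 CPM profile over the 6 libraries lay closest to each called member were picked by the smallest distance among 9969 named genes with a mean of at least 10 CPM. With 6 libraries in 2 groups, such profiles mostly follow the genotype, so they are a description. For Cgn the 3 closest were Bmf (distance 0.17), Tspan12 (0.17) and the member Ildr1 (0.20), and for Ildr1 they were Cgn (0.20), Bmf (0.21) and Pwwp2b (0.22). Tjp3 lay closest to Tead3 (0.12), Evpl (0.16) and Arrdc1 (0.18). F11r lay closest to Alad (0.07), Cyb5r3 (0.07) and Pgm1 (0.08).

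Several markers of airway cells were also lower in Grhl2_cKO. Of 7 ciliated cell markers 6 fell, and their summed level was 147.1 to 184.3 CPM in Grhl2_cKO and 238.2 to 264.5 CPM in controls. Of 6 secretory cell markers 3 fell, with sums of 100.6 to 199.9 CPM in Grhl2_cKO and 241.5 to 331.1 CPM in controls. No marker of either list was at 0 in every library. Grhl2_cKO replicate 1 held the highest sums of both lists among the Grhl2_cKO libraries, and also the highest CPM of Cgn, Tjp3 and F11r. Between replicates 5 and 10 the lists differed. Replicate 10 had a lower ciliated sum than replicate 5 (147.1 and 173.8 CPM) but a slightly higher secretory sum (104 and 100.6 CPM). Replicate 10 also had higher CPM of Cgn, Tjp3, F11r and Ildr1 than replicate 5, and the highest Ildr1 of the Grhl2_cKO libraries. Without Grhl2_cKO replicate 1 the log2 fold changes of Cgn, Tjp3, F11r and Ildr1 were -0.84, -0.52, -0.32 and -0.74, each still called. The part of these markers in the members' changes was not tested, and in sorted bulk cells fewer cells of a type and less RNA per cell cannot be told apart.

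Within male libraries (2 per group), Cgn stood at 56.6%, Ildr1 at 63.4%, Tjp3 at 72.4% and F11r at 78.5% of control by mean CPM. Between the 2 female libraries (1 per group, no test), Ildr1 stood at 58.1%, Cgn at 62.7%, Tjp3 at 67.7% and F11r at 89.6% of control. All 9 members lay below control in the female pair, and the other 5 stood there at 90.1% (Ocln) to 97.7% (Cgnl1) of control, against 94% (Cgnl1) to 112% (Marveld2) in males.

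**Figure D5:**
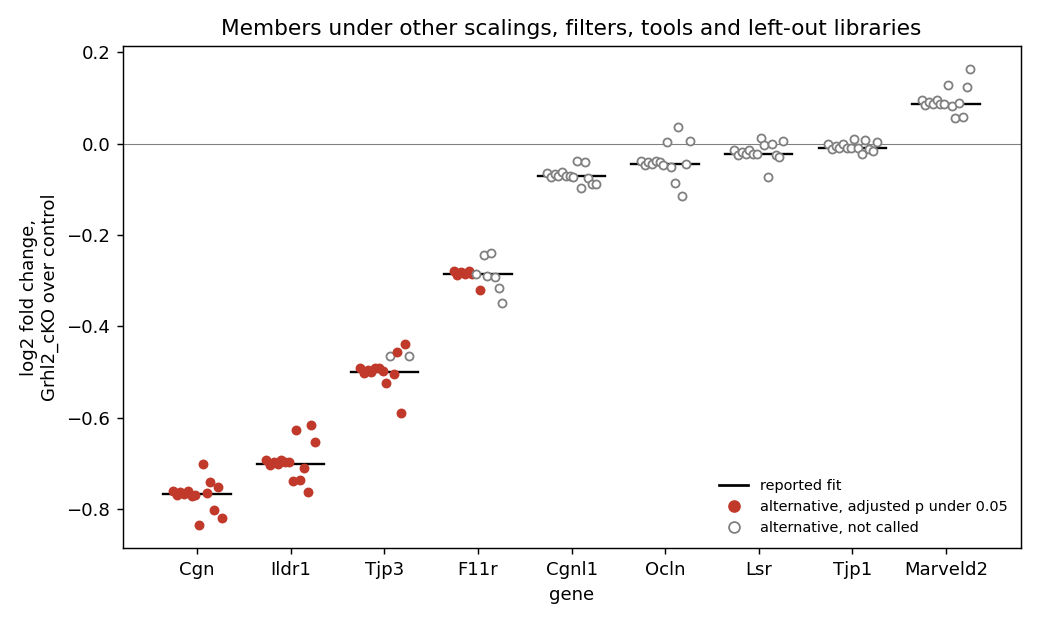
Log2 fold change (Grhl2_cKO over control) of each member in the reported fit (line) and in 14 alternative fits (points; filled where adjusted p was under 0.05). Cgn and Ildr1 are filled throughout, Tjp3 in 12 and F11r in 7 of 14, and the points of Ocln, Lsr and Tjp1 fall on both sides of 0.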

How the data were processed

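Per the labels' protocols, libraries of polyadenylated RNA were made with a stranded kit from sorted cells. The authors deposited raw counts per Entrez gene with a gene length. The submitters' processing notes name bcl2fastq 2.17.1.14, featureCounts, edgeR 3.16.5, limma 3.30.12 and the build mm10. For the aligner and the strand setting of counting, the sources used here give no entry. A RefSeq gene table (GRCm38.p6) gave symbols for 25275 of 27179 identifiers (92.99%).

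The main test was edgeR 4.0.16 (R 4.3.3) with TMM, a low-count filter (filterByExpr with the groups, a count of 10 and a total of 15), which left 14842 genes, default quasi-likelihood settings, no covariate and Benjamini-Hochberg adjustment at 0.05. SE was taken from the fold change and its F statistic. RPKM divides CPM by the deposited length. The fit was tested on simulated data. Replicates differed by more than counting noise (chi-square per gene 7.72 to 12.9). A count of 3 is 0.174 to 0.223 CPM. Alternatives used DESeq2 1.42.0, limma-voom (limma 3.58.1), RLE or total-count scaling, other filters, sex as a covariate and left-out libraries. Named genes are Grhl2, the members, partners that were called or fixed by name, nearest profiles, and neighbours and other partners chosen after values were seen. The members and lists were chosen with earlier results of these data known. A gene of the partner list is counted with it but not reported here by name.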

Additional observations from a re-analysis of the deposited data

How the results depend on the processing

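Cgn and Ildr1 of the members, and Jam3 beside them, kept their calls in 14 of 14 alternatives, Tjp3 in 12 and F11r in 7. The count of members called lower was 2 to 4 in fits without 1 library, the 2 being without Grhl2_cKO replicate 5, and 2 in male libraries only, a setting added after seeing the data. Members called higher numbered 0 in each fit. Over the whole table, fits without 1 library called 165 to 336 genes lower and 77 to 221 higher, against 353 and 180, and male libraries only gave 87 higher. Partner genes called higher numbered 2 with no filter and with limma-voom, where Ildr2 joined Jam3. Log2 fold changes near 0 changed sign: without 1 library they ran from -0.023 to 0.0101 for Tjp1, -0.116 to 0.0353 for Ocln and -0.0739 to 0.013 for Lsr, above 0 without Grhl2_cKO replicate 1 for each of the 3 and without control replicate 1 for Tjp1 and Ocln, and they were above 0 in male libraries only (Tjp1 0.0043, Ocln 0.0046, Lsr 0.0050), and none of these was called. The cause was not tested. Ratios between members kept their sign in each alternative. No paired analysis was made, because the replicate numbers do not say which libraries would form pairs. Ildr1 had the lowest counts and the largest SE of the members.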
